A study of Mus musculus with 7 samples.

Results

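Lysosomal hydrolases, the other resident proteins of the lysosome and the machinery of autophagy were compared in the livers of old and young C57BL/6 mice, a common inbred strain, by sequencing the messenger RNA of whole liver in strand-specific libraries. The group of 34 genes was taken by symbol from the 23366 genes in each library's table, and all 34 were found and passed the filter on low counts. The 21-month group held 3 libraries and the 3-month group 4, all from whole liver with no treatment or allele named, and the comparison asks which liver transcripts differ with age. The labels give no sex, feeding state or time of sampling and do not say that the libraries came from separate animals, so p-values measure the spread between these libraries, which may be technical. Libraries held 4724687 to 11143125 expected counts, and a member's own count ran from 16 (Gla) to 5003 (Ctsb) in a library. In bulk RNA, fewer cells of a type and less RNA per cell cannot be told apart.

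The lysosome is an acidic organelle in which hydrolases break down proteins, lipids, glycans and glycogen that arrive by endocytosis or autophagy. Soluble hydrolases work in its lumen together with helper proteins that present lipids to them, while membrane proteins line the organelle, move its products out and release calcium. In macroautophagy, a membrane forms around cytoplasm under the control of the Ulk1 and Becn1 complexes, is decorated with lipid-linked LC3 and GABARAP proteins, and fuses with the lysosome. In hepatocytes this route turns over mitochondria, glycogen and lipid droplets, and lysosomal acid lipase hydrolyses the lipid esters delivered by it. Tfeb is a transcription factor that switches on many lysosomal and autophagy genes.

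At 21 months, 7 of the 34 genes were higher and 1 was lower than at 3 months (edgeR quasi-likelihood test, Benjamini-Hochberg adjustment over all 11251 genes tested, threshold 0.05), against 5.47% of all genes tested called higher and 5.86% called lower, or 11.3% in either direction. By role, 4 of 16 hydrolases (Lipa, Ctsc, Ctsb, Hexa) and 2 of 3 non-enzymatic lumen proteins (Npc2, Psap) were higher. Of 6 membrane proteins 1 (Lamp2) was higher, and the hydrolase Ctsl was lower. None of the 8 autophagy genes and not Tfeb passed the threshold, although 1 of the 8, Becn1, had an unadjusted p under 0.05. DESeq2 and limma voom called 0 of those 8 as well. With so few genes, 1 of 6 membrane proteins and 0 of 8 autophagy genes cannot be set apart from the 11.3% of all genes tested. Differences between the roles were not tested. The median log2 fold change, 21 months minus 3 months, was 0.15 over the 34 genes and -0.0015 over all genes tested, with 24 of the 34 values above 0. The ages did not overlap for 13 of the 34 genes, 11 higher and 2 lower, against 24.2% of all genes tested. The count of higher genes was 3 with library-size scaling and 4 with the replicate number as a block. It was 2, Lipa and Ctsc, with a covariate for how far effective gene length fell short of gene length in each library. That fit is called the fragment-length fit from here on, although the covariate was not checked against measured fragments. The count of higher genes was 3, 3, 2 and 2 without 3-month replicates 1, 2, 3 and 4, and 3 and 2 without 21-month replicates 2 and 3.

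**Figure D1:**
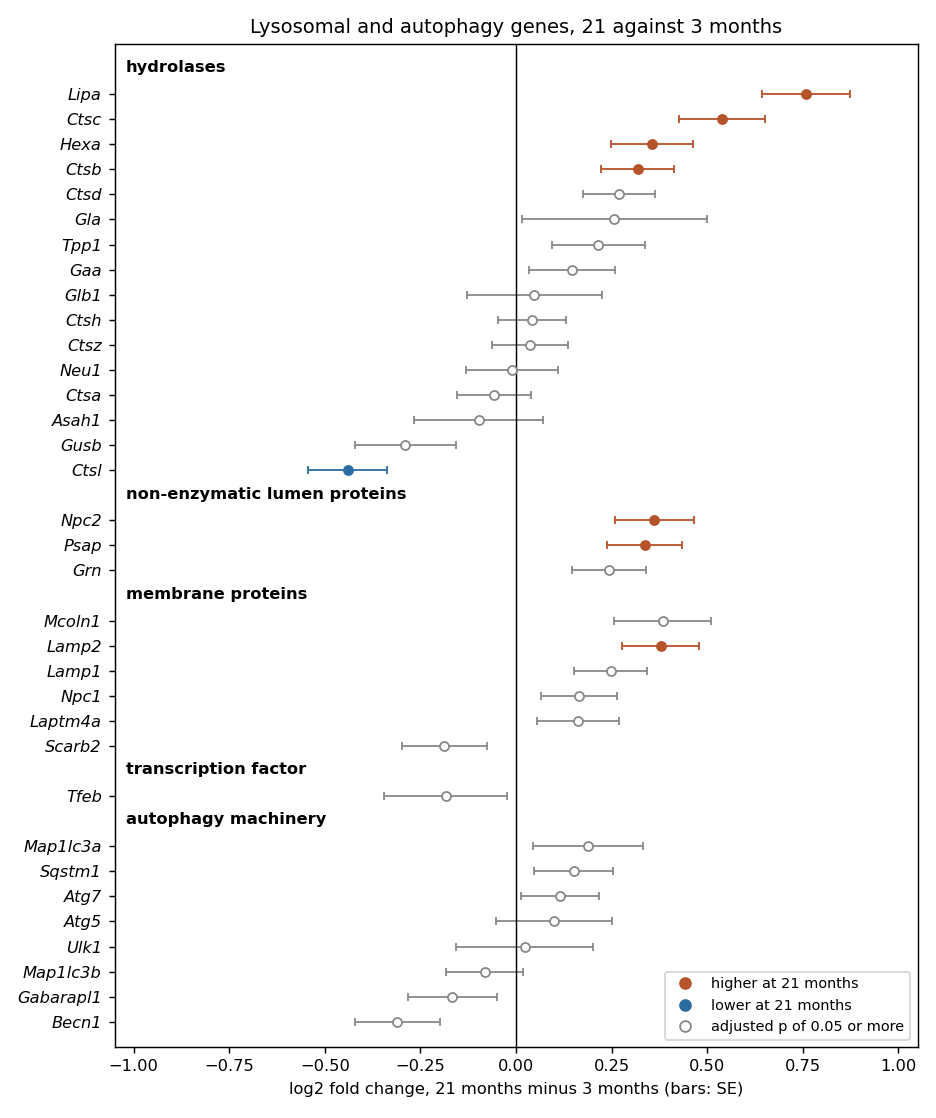
Log2 fold change (21 months minus 3 months, edgeR) of the 34 genes in their 5 roles, with bars for the standard error. Filled points passed an adjusted p of 0.05: 7 genes lie to the right of 0 and Ctsl to the left, and every autophagy gene is an open point.

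Levels were compared between genes in TPM, a unit scaled by transcript length. Lamp1, a glycoprotein that lines the lysosomal membrane, stood highest at 483 ± 57.0 TPM at 21 months and 373 ± 24.9 TPM at 3 months, and Gla, the alpha-galactosidase, lowest at 2.80 ± 0.437 TPM at 21 months and 2.21 ± 0.170 TPM at 3 months (SD, n = 3 and 4). The aspartic protease Ctsd was the highest hydrolase at 412 ± 48.1 TPM at 21 months and 314 ± 27.3 TPM at 3 months, and the cargo receptor Sqstm1 the highest autophagy gene at 400.1 ± 45.3 TPM at 21 months and 331 ± 36.9 TPM at 3 months. Tfeb itself was at 9.12 ± 1.79 TPM at 21 months and 9.44 ± 0.243 TPM at 3 months. Added up, the 34 genes made 4008, 4635 and 4459 TPM in 21-month replicates 1, 2 and 3, against 3405, 3847, 3880.1 and 3457 TPM in 3-month replicates 1 to 4, so the ages did not overlap. On this TPM scale the median of all genes tested lay 0.10 above 0 on the log2 scale, and sums of TPM are read against that shift. The gap between the nearest libraries, 4008 and 3880.1 TPM, was smaller than the shift. The lack of overlap is therefore not read as a difference particular to the 34 genes. The 16 hydrolases added up to 1667, 1909.6 and 1796 TPM at 21 months, against 1422, 1657, 1581 and 1416 TPM at 3 months. Here too the gap between the nearest libraries, 1667 and 1657 TPM, was smaller than the shift. The 6 membrane proteins added up to 1019, 1096 and 1129 TPM at 21 months, against 825, 896, 899 and 788 TPM at 3 months. The 8 autophagy genes overlapped between the ages, with 901, 1053 and 1027 TPM at 21 months, against 804, 905, 1000.3 and 909.9 TPM at 3 months.

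**Figure D2:**
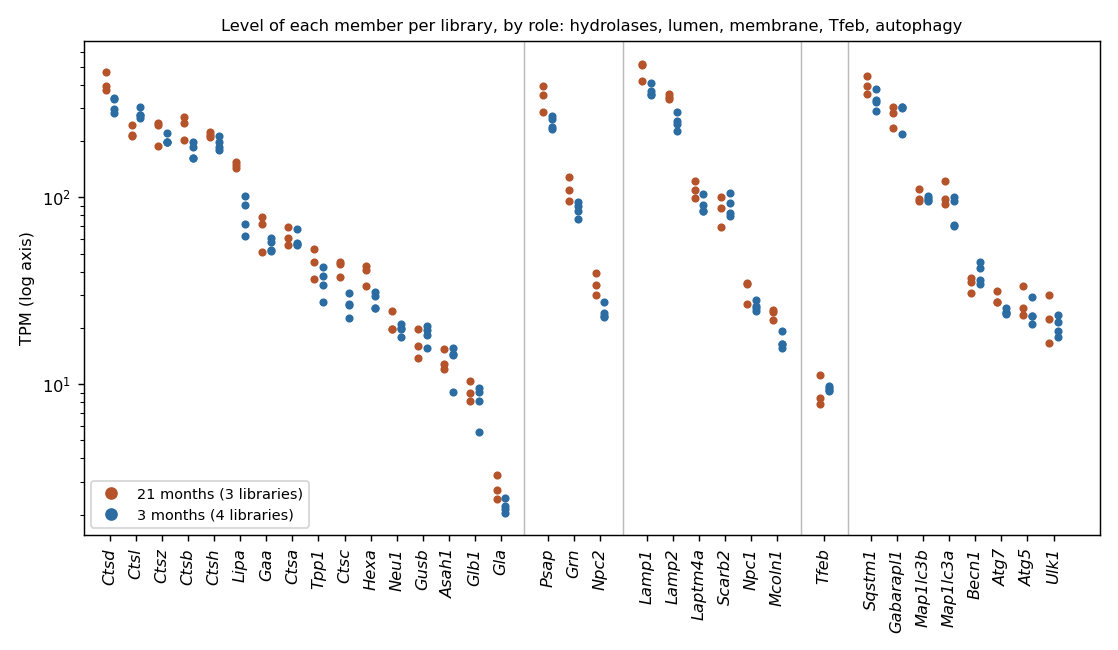
TPM of each gene in each library on a log axis, grouped by role from left to right as hydrolases, other lumen proteins, membrane proteins, Tfeb and autophagy machinery, with 21 months left of 3 months. Levels fall from Lamp1, Ctsd and Sqstm1 at the top to Gla at the bottom, and Lipa averages 149 TPM at 21 months and 81.8 TPM at 3 months.

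Tfeb, the regulator, did not pass the threshold: it had 9.07, 11.9 and 9.04 CPM in 21-month replicates 1, 2 and 3, against 11.7, 10.3, 10.7 and 12.7 CPM in 3-month replicates 1 to 4 (log2 fold change -0.18 ± 0.16 SE, edgeR adjusted p = 0.512). The ages overlapped. The element that Tfeb binds, known as the CLEAR element, holds the palindrome CACGTG, which reads the same on both strands, so RefSeq promoters (build GRCm38.p6) were searched for it from 250 bases before to 50 bases after each annotated start. Of the 34 genes, 28 are in that promoter table; Ctsb, Ctsh, Asah1, Npc1, Map1lc3a and Becn1 are not. CACGTG was present for 10 of the 28 (35.7%), against 8.09% of all 27025 genes in the table and 12.0% of the 8428 that were tested here. The longer palindrome TCACGTGA, which contains CACGTG, was present for 4 of the 28 (14.3%; Ctsa, Ctsd, Gla and Mcoln1), against 2.36% of the genes tested. Of the 10 genes with CACGTG (Ctsa, Ctsd, Ctsl, Gaa, Gla, Glb1, Lamp1, Mcoln1, Atg5 and Atg7), 0 were higher and 1, Ctsl, was lower at 21 months; of the 18 without it, 6 were higher and 0 lower. Over the 8428 genes tested that are in the promoter table, 3.95% of those with CACGTG were higher and 7.40% lower. Of those without it, 5.64% were higher and 5.81% lower. The difference between the members was not tested. The start that the table gives for Ctsl may be an internal one, so whether the match lies in its promoter is in doubt. These matches describe letters near RefSeq starts, which were not checked against the starts used in these livers.

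The promoter stretches below show where CACGTG lies in 4 of the genes that hold it. They also show the upstream bases of the 2 genes with the smallest p-values here. The stretch of Ctsl is not shown because of the doubt about its start. All are written 5′ to 3′ on the gene's strand and lie upstream of the annotated start, with each CACGTG in capitals. They come from chr8:13159081-13159160 (plus strand, Lamp1), chr8:3500437-3500516 (plus strand, Mcoln1), chr7:142387883-142387962 (minus strand, Ctsd), chrX:134601190-134601255 (minus strand, Gla), chr19:34527475-34527624 (minus strand, Lipa) and chr7:88277935-88278084 (plus strand, Ctsc) of GRCm38.p6.
Lamp1: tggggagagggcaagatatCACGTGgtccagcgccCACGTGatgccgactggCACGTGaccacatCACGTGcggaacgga
Mcoln1: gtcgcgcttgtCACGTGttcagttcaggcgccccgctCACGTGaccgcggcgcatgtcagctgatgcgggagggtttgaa
Ctsd: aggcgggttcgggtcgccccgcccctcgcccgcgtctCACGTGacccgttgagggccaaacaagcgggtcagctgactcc
Gla: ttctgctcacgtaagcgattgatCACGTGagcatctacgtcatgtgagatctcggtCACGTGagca
Lipa: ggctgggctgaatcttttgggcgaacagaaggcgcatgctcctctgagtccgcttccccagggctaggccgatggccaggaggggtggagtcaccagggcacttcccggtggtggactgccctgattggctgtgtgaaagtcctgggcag
Ctsc: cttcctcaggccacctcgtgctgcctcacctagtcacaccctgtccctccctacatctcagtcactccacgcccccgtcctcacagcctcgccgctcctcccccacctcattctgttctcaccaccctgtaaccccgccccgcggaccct
The Lamp1 stretch holds 4 copies of CACGTG, those of Mcoln1 and Gla 2 each and that of Ctsd 1. Ctsd has a further CACGTG at position -245 from its start, outside the stretch shown. Neither the 150 bases before the Lipa start nor those before the Ctsc start hold it.

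Among the hydrolases, Lipa changed most. It encodes lysosomal acid lipase, which releases cholesterol and fatty acids from esters and triglycerides. Lipa had 230.5, 196 and 205 CPM in 21-month replicates 1, 2 and 3, against 116, 145, 132 and 103 CPM in 3-month replicates 1 to 4. The lowest old library exceeded the highest young one, and the means were 210.3 ± 18.0 CPM at 21 months and 124 ± 18.3 CPM at 3 months (1.69-fold; log2 fold change 0.76 ± 0.12 SE, edgeR adjusted p = 0.00105). Ctsc, cathepsin C, removes dipeptides from proteins and activates granule proteases of immune cells. It had 54.0, 50.7 and 42.8 CPM in 21-month replicates 1, 2 and 3, against 35.8, 36.4, 31.8 and 31.2 CPM in 3-month replicates 1 to 4 (1.45-fold; log2 fold change 0.54 ± 0.11 SE, edgeR adjusted p = 0.00753). Again no old library fell within the young range. Both genes kept their calls in each of the 7 fits that left out 1 library (log2 fold change 0.68 to 0.85 for Lipa and 0.46 to 0.65 for Ctsc), and also with the replicate block and in the fragment-length fit (log2 fold change 0.88 and 0.73, edgeR adjusted p = 0.0115 and 0.0126).

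Ctsb and Hexa rose less. Ctsb, an abundant cysteine protease, had 487, 589.7 and 554 CPM in 21-month replicates 1, 2 and 3, against 422, 429, 461 and 433 CPM in 3-month replicates 1 to 4 (1.25-fold; log2 fold change 0.32 ± 0.10 SE, edgeR adjusted p = 0.0456). Hexa, the alpha subunit of the hexosaminidase that degrades GM2 ganglioside, had 30.8, 36.3 and 35.2 CPM in 21-month replicates 1, 2 and 3, against 25.5, 27.7, 26.5 and 26.5 CPM in 3-month replicates 1 to 4 (1.28-fold; log2 fold change 0.36 ± 0.11 SE, edgeR adjusted p = 0.0447). The ages did not overlap for either gene, and 21-month replicate 1 was the old library closest to the young ones for both. Each call lay near the threshold. It was lost with the replicate block (edgeR adjusted p = 0.0612 for Ctsb and 0.0766 for Hexa) and in the fragment-length fit (0.341 and 0.300). It was also lost without any 1 of 3-month replicates 1 to 4 or of 21-month replicates 2 and 3 (edgeR adjusted p = 0.0735 to 0.121 for Ctsb and 0.0835 to 0.124 for Hexa), with log2 fold changes of 0.27 to 0.39 and 0.33 to 0.42 over all 7 such fits. Library-size scaling ended both calls (0.0714 and 0.0781, edgeR adjusted p), as did dropping the filter on low counts (0.0530 and 0.0646). That of Hexa also ended in DESeq2 (adjusted p = 0.0816) and limma voom (adjusted p = 0.0502).

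Ctsl moved the other way. It encodes cathepsin L, a cysteine endopeptidase. It had 239, 194 and 193 CPM in 21-month replicates 1, 2 and 3, against 282, 285, 263 and 303 CPM in 3-month replicates 1 to 4 (1.36-fold lower at 21 months; log2 fold change -0.44 ± 0.10 SE, edgeR adjusted p = 0.0136). All 3 old libraries lay below all 4 young ones. The call ended on leaving out 21-month replicate 2 or 3 (0.0522 and 0.0949, edgeR adjusted p), in the fragment-length fit (0.203) and on the log2(TPM + 1) scale (limma adjusted p = 0.0512). On that scale its log2 fold change was -0.32, or -0.43 relative to the median of all genes on that scale.

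The other 11 hydrolases did not pass the threshold. The closest was Ctsd, which had 365, 415 and 353 CPM in 21-month replicates 1, 2 and 3, against 299, 317, 315 and 322 CPM in 3-month replicates 1 to 4 (log2 fold change 0.27 ± 0.09 SE, edgeR adjusted p = 0.0756). Its ages did not overlap, and limma on log2(TPM + 1) called it (limma adjusted p = 0.0372), a scale on which 74.9% of all calls were higher at 21 months, against 48.3% in counts. Gusb, the beta-glucuronidase, had 16.9, 22.1 and 18.1 CPM at 21 months, against 25.9, 21.6, 24.3 and 21.3 CPM at 3 months (log2 fold change -0.29 ± 0.13 SE, edgeR adjusted p = 0.175), with the 21-month value of replicate 2 inside the young range. The rest were Gla, Tpp1 (a tripeptidyl peptidase), Gaa (the acid glucosidase that degrades glycogen), Glb1 (beta-galactosidase), the cathepsins Ctsh and Ctsz, Neu1 (a sialidase), Ctsa (which stabilises Neu1 and Glb1) and Asah1 (acid ceramidase). Their log2 fold changes ran from -0.10 for Asah1 to 0.26 for Gla, and the ages overlapped for all of them. Gla rested on 16 to 50 counts per library and had the widest standard error of the 34 genes (0.24 on the log2 scale).

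**Figure D3:**
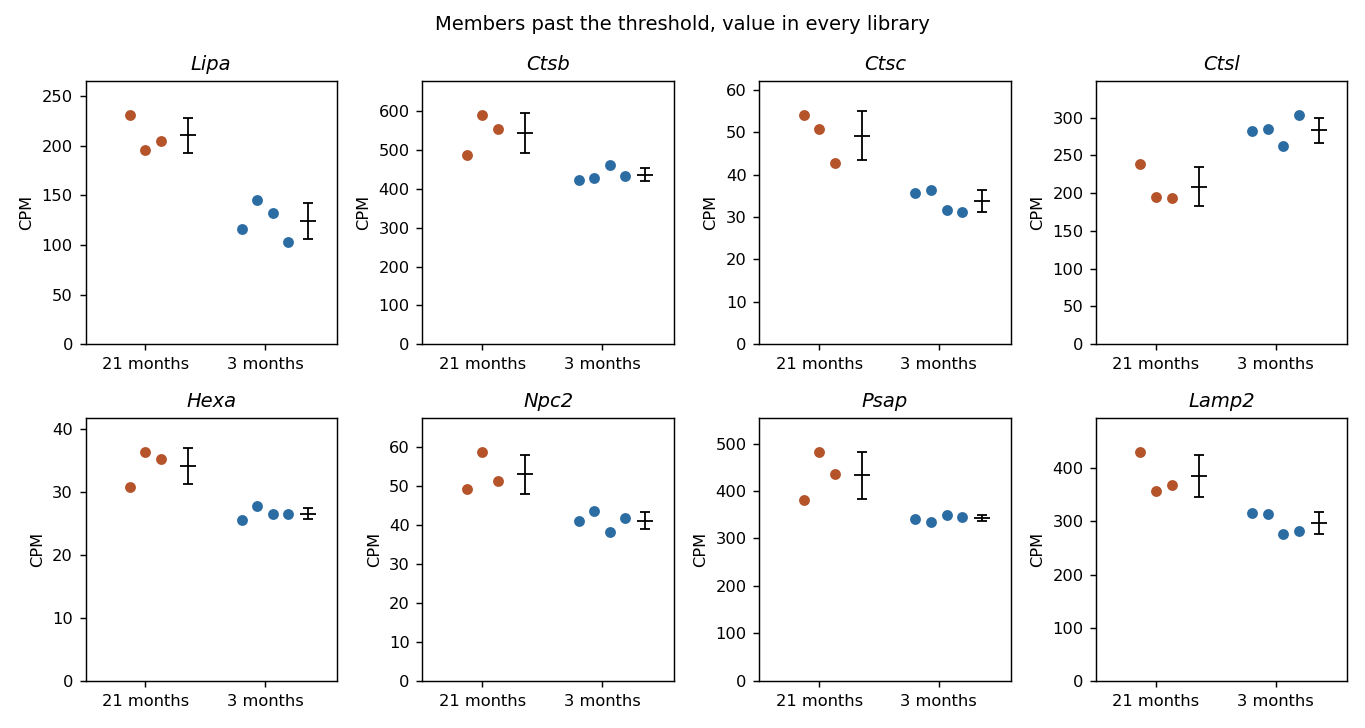
CPM of the 8 genes past the threshold in each library (points), with the mean and SD of each age beside them (n = 3 at 21 months, n = 4 at 3 months). The ages do not overlap in any panel, with 21 months above 3 months for 7 genes and below for Ctsl.

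In the lumen, Npc2 and Psap were higher at 21 months. Npc2 carries cholesterol within the lysosome and hands it to Npc1 in the membrane. It had 49.1, 58.7 and 51.3 CPM in 21-month replicates 1, 2 and 3, against 40.9, 43.5, 38.2 and 41.7 CPM in 3-month replicates 1 to 4 (1.28-fold; log2 fold change 0.36 ± 0.10 SE, edgeR adjusted p = 0.0361). Psap is the precursor of the saposins, which present sphingolipids to hydrolases. It had 382, 482 and 435 CPM in 21-month replicates 1, 2 and 3, against 341, 335, 349 and 346 CPM in 3-month replicates 1 to 4 (1.26-fold; log2 fold change 0.34 ± 0.10 SE, edgeR adjusted p = 0.0384). For both genes every old library lay above every young one, and 21-month replicate 1 was the closest to the young range. Grn, the precursor of progranulin and granulins, had 112, 137 and 118 CPM at 21 months, against 107, 101, 107 and 99.2 CPM at 3 months. All its old values exceeded all its young ones, but it did not pass the threshold (log2 fold change 0.24 ± 0.10 SE, edgeR adjusted p = 0.117); without 21-month replicate 1 it did (edgeR adjusted p = 0.0414). The calls of Npc2 and Psap were lost without any 1 of 3-month replicates 1 to 4 or of 21-month replicates 2 and 3 (edgeR adjusted p = 0.0620 to 0.101 and 0.0736 to 0.112). In the fragment-length fit they were at 0.173 and 0.299, and with the replicate block at 0.0476 and 0.0520 (edgeR adjusted p), so the block ended the call of Psap. Library-size scaling ended both (0.0579 and 0.0539, edgeR adjusted p).

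Among the 6 membrane proteins, Lamp2 passed the threshold. Lamp2 lines the lysosomal membrane beside Lamp1, is needed for the late steps of autophagy, and in its A form takes up single proteins in chaperone-mediated autophagy. It had 430.4, 357 and 369 CPM in 21-month replicates 1, 2 and 3, against 315, 314, 276 and 281 CPM in 3-month replicates 1 to 4 (1.30-fold; log2 fold change 0.38 ± 0.10 SE, edgeR adjusted p = 0.0260). Every old library lay above every young one. The call ended on leaving out 3-month replicate 3 or 4 (0.0903 and 0.0684, edgeR adjusted p) or 21-month replicate 1 or 3 (0.0567 and 0.0553), and in the fragment-length fit (0.0611), where the log2 fold change was 0.49.

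Mcoln1, the calcium channel of the lysosomal membrane, had 24.1, 22.8 and 20.3 CPM at 21 months, against 17.7, 14.9, 18.6 and 18.2 CPM at 3 months, with no overlap, and did not pass (log2 fold change 0.38 ± 0.13 SE, edgeR adjusted p = 0.0637). Lamp1 had 469, 528 and 539.9 CPM at 21 months, against 437, 398, 446 and 446 CPM at 3 months, again without overlap (log2 fold change 0.25 ± 0.10 SE, edgeR adjusted p = 0.107). Limma on log2(TPM + 1) called both (limma adjusted p = 0.0332 for Mcoln1 and 0.0406 for Lamp1), and leaving out 21-month replicate 1 brought Lamp1 past the threshold (edgeR adjusted p = 0.0435). Npc1, the sterol exporter that receives cholesterol from Npc2, had 70.5, 83.8 and 83.8 CPM at 21 months, against 74.5, 71.0, 65.1 and 72.1 CPM at 3 months (log2 fold change 0.17 ± 0.10 SE, edgeR adjusted p = 0.315). Laptm4a, a small membrane protein of late endosomes and lysosomes, had 130.3, 96.6 and 108 CPM at 21 months, against 97.5, 106, 93.9 and 101 CPM at 3 months (log2 fold change 0.16 ± 0.11 SE, edgeR adjusted p = 0.369). For both genes the lowest old library lay within the young range. Scarb2, also known as LIMP2, which carries glucocerebrosidase to the lysosome, was the member of this role with a value below 0; it had 72.5, 84.8 and 97.9 CPM at 21 months, against 93.4, 93.5, 108 and 92.8 CPM at 3 months (log2 fold change -0.19 ± 0.11 SE, edgeR adjusted p = 0.305), and the ages overlapped.

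The row of Lamp2 pools 2 transcripts, and the tables give for each library a gene length averaged over transcripts by their abundance. For Lamp2 this mean length was 2412, 2334 and 2332 bases in 21-month replicates 1, 2 and 3, against 2273, 2298, 2295 and 2218 bases in 3-month replicates 1 to 4. The ages did not overlap, and the mean was 2359 ± 45.6 bases at 21 months and 2271 ± 37.5 bases at 3 months (SD, n = 3 and 4; two-sided exact permutation p = 0.0286, the smallest that 35 splits allow). Of the 34 genes, 8 have rows of several transcripts, and adjusted over those 8 the exact permutation p was 0.229. Lamp2 was the only 1 of the 8 whose ages did not overlap in length, against 7.87% of the 2784 tested genes with several transcripts. The other 7 differed by at most 5.08 bases between the ages, and which transcripts make up a row was not resolved here.

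**Figure D4:**
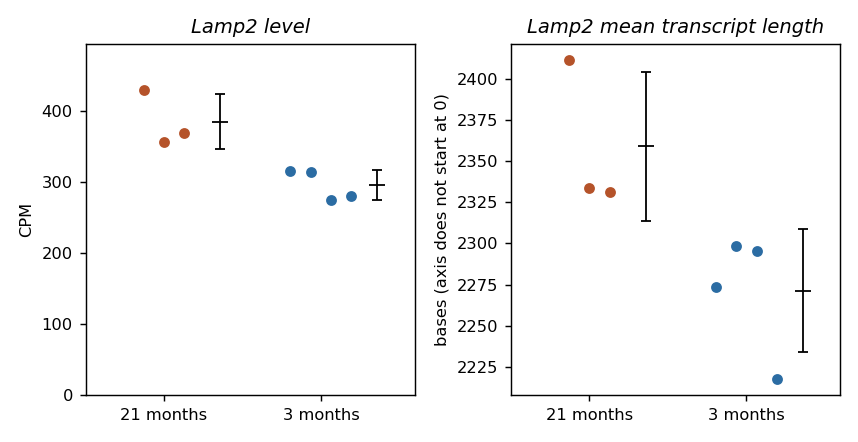
Level of Lamp2 in CPM (left) and mean length of its transcripts in bases (right; the axis does not start at 0) in each library, with the mean and SD of each age. On both axes the 3 libraries at 21 months lie above the 4 at 3 months.

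The 8 genes of the autophagy machinery had log2 fold changes from -0.31 for Becn1 to 0.19 for Map1lc3a, and none passed. Ulk1, the kinase that starts autophagy, had 43.7, 72.2 and 53.9 CPM at 21 months, against 54.7, 44.8, 54.6 and 68.7 CPM at 3 months (log2 fold change 0.02 ± 0.18 SE, edgeR adjusted p = 0.958). Its values spread widely within each age and overlapped. Becn1, a subunit of the lipid kinase complex that acts next, had 35.7, 34.1 and 28.9 CPM at 21 months, against 37.8, 40.4, 44.3 and 40.9 CPM at 3 months. Its old libraries all lay below its young ones (log2 fold change -0.31 ± 0.11 SE, edgeR adjusted p = 0.0841), and without 21-month replicate 1 the difference passed the threshold (edgeR adjusted p = 0.0392). Atg7 and Atg5 belong to the conjugation system that links LC3 and GABARAP proteins to lipid. Atg7 had 52.3, 54.9 and 48.5 CPM at 21 months, against 50.4, 43.6, 47.1 and 51.1 CPM at 3 months (log2 fold change 0.11 ± 0.10 SE, edgeR adjusted p = 0.520). Atg5 had 39.5, 25.3 and 27.7 CPM at 21 months, against 26.8, 26.0, 33.4 and 30.2 CPM at 3 months (log2 fold change 0.10 ± 0.15 SE, edgeR adjusted p = 0.733), and 21-month replicate 1 alone lay above the young range.

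The conjugated proteins and the cargo receptor did not pass either. Map1lc3a had 49.9, 56.8 and 43.8 CPM at 21 months, against 52.9, 34.8, 49.6 and 40.1 CPM at 3 months (log2 fold change 0.19 ± 0.14 SE, edgeR adjusted p = 0.447). Map1lc3b, its close relative, had 80.8, 86.2 and 77.1 CPM at 21 months, against 93.6, 77.8, 81.1 and 92.2 CPM at 3 months (log2 fold change -0.08 ± 0.10 SE, edgeR adjusted p = 0.653). The ages overlapped for both LC3 genes. Gabarapl1, of the GABARAP branch, had 207, 245 and 229 CPM at 21 months, against 207, 258, 256 and 298 CPM at 3 months (log2 fold change -0.17 ± 0.12 SE, edgeR adjusted p = 0.400). Sqstm1, also called p62, binds ubiquitinated cargo and is itself degraded by autophagy. It had 356, 358 and 413 CPM at 21 months, against 311, 310.3, 365 and 368 CPM at 3 months (log2 fold change 0.15 ± 0.10 SE, edgeR adjusted p = 0.387), with overlapping ages. The standard errors of the 8 log2 fold changes ran from 0.10 for Map1lc3b to 0.18 for Ulk1, so a p that misses the threshold does not show that the ages were alike.

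**Figure D5:**
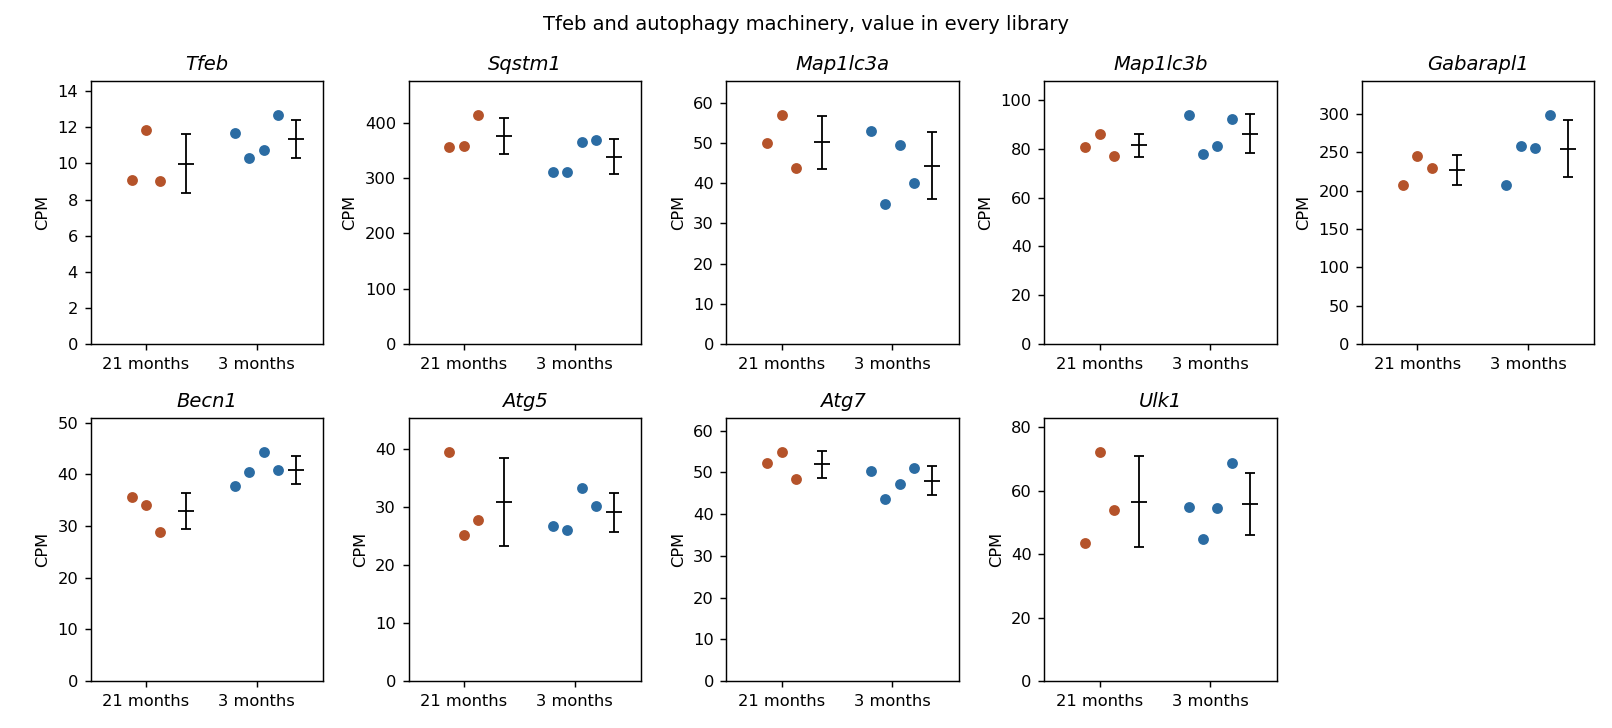
CPM of Tfeb and the 8 autophagy genes in each library (points), with the mean and SD of each age (n = 3 at 21 months, n = 4 at 3 months). The ages overlap in every panel except that of Becn1, where the 3 old libraries lie between 28.9 and 35.7 CPM and the 4 young ones between 37.8 and 44.3 CPM.

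Beyond the 34 genes, 147 further genes of the lysosome and autophagy were tested, of which 12 were higher and 3 lower at 21 months, 10.2% in all against 11.3% of all genes tested. Of 39 other hydrolases and activators, 6 were higher and 0 lower. Galns, a sulfatase that degrades keratan sulfate, had 9.95, 10.9 and 9.39 CPM at 21 months, against 6.75, 5.75, 5.66 and 5.84 CPM at 3 months (1.68-fold; log2 fold change 0.75 ± 0.16 SE, edgeR adjusted p = 0.00976). Siae, a sialic acid esterase, was 1.39-fold higher and Pla2g15, a lysosomal phospholipase, 1.53-fold higher (edgeR adjusted p = 0.0231 and 0.0270). The call of Siae ended on leaving out 3-month replicates 2 or 3 or 21-month replicate 3 (edgeR adjusted p = 0.0644 to 0.0774), and that of Pla2g15 on leaving out 3-month replicates 2 or 4 or 21-month replicate 2 (0.0652 to 0.0938) and with the replicate block (0.0680). In the fragment-length fit Galns, Siae and Pla2g15 did not pass (0.0666, 0.125 and 0.0858; edgeR adjusted p).

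Of 12 genes of enzyme sorting, 1 was lower and 0 higher. It was Sort1, sortilin, a receptor that carries proteins from the Golgi to endosomes, which had 8.57, 19.4 and 14.4 CPM at 21 months, against 27.6, 29.3, 26.1 and 26.8 CPM at 3 months (1.98-fold lower at 21 months; log2 fold change -0.99 ± 0.21 SE, edgeR adjusted p = 0.0147). All old values lay below all young ones, and the call ended on leaving out 21-month replicate 3 (0.0651, edgeR adjusted p) and in the fragment-length fit (0.0744). Of 19 other membrane proteins, Laptm4b, a relative of Laptm4a, was 1.51-fold higher (log2 fold change 0.59 ± 0.12 SE, edgeR adjusted p = 0.00722; 0.0580 in the fragment-length fit), and 0 were lower. Of 16 genes of the proton pump that acidifies the lysosome, the accessory subunit Atp6ap1 was 1.27-fold higher (log2 fold change 0.34 ± 0.09 SE, edgeR adjusted p = 0.0262) and 0 were lower. That call was lost with the replicate block (0.0566), in the fragment-length fit (0.125), and without any 1 of 3-month replicates 1 to 4 or of 21-month replicates 2 and 3 (edgeR adjusted p = 0.0542 to 0.0726).

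Of 31 other genes of the autophagy machinery, 1 was higher and 0 lower: Gabarap, the namesake of the family of Gabarapl1, had 172, 143 and 165 CPM at 21 months, against 115, 117, 128 and 114 CPM at 3 months (1.35-fold; log2 fold change 0.44 ± 0.10 SE, edgeR adjusted p = 0.00940; 0.0847 in the fragment-length fit). Of 10 other cargo receptors, 1 was higher and 1 lower. Nbr1, which binds ubiquitinated cargo as Sqstm1 does, had 89.5, 87.3 and 146 CPM at 21 months, against 172, 174, 185 and 186 CPM at 3 months (1.67-fold lower at 21 months; log2 fold change -0.74 ± 0.16 SE, edgeR adjusted p = 0.0151). Nbr1 kept its call in every fit that left out 1 library and in the fragment-length fit (0.00154). Tollip, an endosomal adaptor that also binds ubiquitin, was 1.34-fold higher (log2 fold change 0.42 ± 0.10 SE, edgeR adjusted p = 0.0164). Leaving out 3-month replicate 2 or 21-month replicate 3 ended its call (0.0577 and 0.0666, edgeR adjusted p), as did the fragment-length fit (0.226).

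Of 20 genes of mTORC1, the kinase complex that holds Tfeb in the cytoplasm, and of the wider control of lysosomal genes, 2 were higher and 1 lower. Ppargc1a, a coactivator of mitochondrial genes, was 1.80-fold higher (log2 fold change 0.85 ± 0.24 SE, edgeR adjusted p = 0.0348) and Foxo1, a transcription factor active in fasting, 1.33-fold higher (log2 fold change 0.41 ± 0.12 SE, edgeR adjusted p = 0.0459). Lamtor2, a part of the lysosomal scaffold of mTORC1, was 1.46-fold lower (log2 fold change -0.55 ± 0.15 SE, edgeR adjusted p = 0.0354). These 3 calls were lost in the fragment-length fit (edgeR adjusted p = 0.177, 0.271 and 0.229). Those of Ppargc1a and Foxo1 were also lost without any 1 of 3-month replicates 1 to 4 or of 21-month replicates 2 and 3 (edgeR adjusted p = 0.0579 to 0.116 and 0.0580 to 0.140), and that of Lamtor2 without 3-month replicates 1, 3 or 4 or 21-month replicates 2 or 3 (0.0699 to 0.146). DESeq2 did not call Ppargc1a or Foxo1 (DESeq2 adjusted p = 0.0538 and 0.0691).

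Macrophages are rich in lysosomes, and their markers spread widely among the 21-month libraries. Of 17 macrophage markers tested, 0 passed the threshold by edgeR, DESeq2 or limma voom, and 1, Aif1, had an unadjusted p under 0.05. Their summed level was 226, 652 and 478 CPM in 21-month replicates 1, 2 and 3, against 388, 564, 416 and 361 CPM in 3-month replicates 1 to 4, and the defining markers were present in every library (Clec4f at 40.8 to 105.6 CPM at 21 months, against 74.5 to 94.3 CPM at 3 months). Within the 21-month group, Ctsb, Hexa, Npc2, Psap and Grn were lowest in replicate 1 and highest in replicate 2, as the marker sum was. Lipa, Ctsc and Lamp2 were highest in replicate 1, where the marker sum was lowest of all 7 libraries, and at 230.5, 54.0 and 430.4 CPM they were above every young library there. The part of macrophage content in the calls of the 34 genes, these 3 included, was not tested. An order with replicate 1 lowest and replicate 2 highest was not particular to macrophage markers. Summed endothelial markers were at 167, 375 and 335 CPM in 21-month replicates 1, 2 and 3. Sums of stellate, B and plasma, T and NK cell and neutrophil markers ran likewise, and those of bile duct and hepatocyte markers did not.

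Of 9 hepatocyte markers, 1 was higher (Alb, 1.43-fold) and 1 lower (Apoa1, 1.46-fold lower) by edgeR, and DESeq2 called 1 higher and 3 lower. Alb, serum albumin, ran from 50175 to 53670 CPM at 21 months, against 28742 to 43276 CPM at 3 months. The other 8 markers summed to 23666, 26065 and 27286 CPM in 21-month replicates 1, 2 and 3, against 27724, 28922, 27351 and 29573 CPM in 3-month replicates 1 to 4. Without Alb the sum thus lay lower at 21 months, but the nearest libraries, 27286 and 27351 CPM, were almost level. Of the 9 markers, 3 were lower at 21 months without overlap. The call of Alb ended on leaving out 3-month replicates 1, 3 or 4 or 21-month replicate 3 (edgeR adjusted p = 0.0502 to 0.0998). That of Apoa1 ended on leaving out 3-month replicate 2 or 21-month replicate 3 (0.0538 and 0.0997, edgeR adjusted p), and both ended in the fragment-length fit (0.142 and 0.128).

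Most markers of lymphocytes and neutrophils were too low to test. Of 8 T and NK cell markers only Cd4 was tested, at 0.591, 2.79 and 0.357 CPM at 21 months, against 3.10, 1.63, 1.21 and 2.92 CPM at 3 months (log2 fold change -0.89 ± 0.60 SE, edgeR adjusted p = 0.384). Of the 7 below the filter, with at most 9 counts in a library, Cd3e, Cd3g, Cd8a and Nkg7 lay higher in every 21-month library than in any 3-month library, and 0 lay lower in that way. Cd3g, for example, rested on 3, 8 and 2 counts at 21 months, against 0, 1, 0 and 0 at 3 months. The 24.2% of all genes tested without overlap does not cover genes below the filter, for which no such share is given here. Of 7 neutrophil markers, 0 of the 2 tested passed by edgeR, DESeq2 or limma voom, with 0 at an unadjusted p under 0.05, and all 5 below the filter had a higher mean at 21 months, S100a9 without overlap. Igj, an immunoglobulin chain gene of plasma cells, was called higher among 3 B and plasma cell markers tested, at 4.93, 23.5 and 3.81 CPM at 21 months, against 0.547, 0.257, 0 and 0 CPM at 3 months (edgeR adjusted p = 0.0426). Its call ended in limma voom (adjusted p = 0.102), in the fragment-length fit (0.123), with library-size scaling (0.0535), with no filter on low counts (0.0706), and on leaving out any 1 of the 3-month replicates or 21-month replicate 1 (edgeR adjusted p = 0.0564 to 0.129). DESeq2 called 2 of those 3 markers and limma voom 0. Dcn (1.63-fold) was higher among 9 stellate cell markers, and Lyve1 was lower among 9 endothelial and Sox9 among 4 bile duct markers. The part of these cell types in the calls of the 34 genes was not tested.

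The libraries also differed in how far the effective length of genes fell short of their length. In 21-month replicates 1, 2 and 3 the median shortfall was 35.4, 30.9 and 21.4 bases. In 3-month replicates 1 to 4 it was 36.9, 38.8, 35.7 and 34.4 bases. This shortfall was used in place of a fragment length and was not checked against measured fragments or reads. In the fit with this value as a covariate, 332 of all 11251 genes passed. The shortfall was lowest in 21-month replicates 2 and 3, so it and age cannot be fully told apart. Among members whose calls ended there, Npc2 was at 0.37 ± 0.14 SE, against 0.36 ± 0.10 SE without the covariate (log2 fold change). Lamp2 was at 0.49 ± 0.13 SE, against 0.38 ± 0.10 SE. The fold changes of Ctsb, Hexa, Psap and Ctsl were smaller in size there. The part of the shortfall in the calls that ended was not tested. The 45S ribosomal RNA precursor Rn45s took 18.7% to 25.6% of the counts over the 7 libraries.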

How the data were processed

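Each library came with 1 gene table, and the submitters' processing notes name TopHat, RSEM, edgeR and the build mm9. Versions: not given in the sources used here. Per the file headers, the authors deposited expected counts, which are estimated counts per gene and not all whole. The authors also deposited TPM values, scaled by length and summing to 1e+06 per library, used here for levels between genes. The effective length and length columns, deposited per gene, are other values in bases. FPKM values were not used. Estimated counts can share reads between near-identical copies.

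Expected counts were rounded. The filter on low counts was filterByExpr of edgeR (minimum count 10, minimum total 15), and TMM scaling preceded a robust quasi-likelihood fit in edgeR, with calls at an adjusted p of 0.05. CPM are counts per 1e+06 on the TMM scale. A standard error is the fold change over the root of F. R 4.3.3, edgeR 4.0.16, limma 3.58.1, DESeq2 1.42.0, Python 3.11.15 and matplotlib 3.10.9 were used. The edgeR, DESeq2, limma voom and replicate-block fits were run on simulated data with a change larger than that of any member. That run does not show how well changes of the size seen here are found. Every pair of libraries of 1 age differed by more than counting noise.

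Libraries with the same replicate number deviated together from their age's mean (correlation 0.107, 0.174 and 0.104 for numbers 1, 2 and 3, although 21-month replicate 1 correlated more, at 0.159, with 3-month replicate 4; the labels name no shared animal or batch), so the fit with the replicate number as a block is given beside each call it changes. In that fit 3-month replicate 4 has no partner and does not bear on the difference. The covariate of the fragment-length fit is the median shortfall of effective length per library. The alternatives were RLE and library-size scaling, no filter and a minimum mean of 5 CPM, DESeq2, limma voom, limma on log2(TPM + 1) and log2(TPM + 0.1), the block, the covariate, ribosomal RNA rows removed, and each library left out.

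The 34 genes and the lists (other hydrolases, enzyme sorting, membrane proteins, proton pump, autophagy machinery, cargo receptors, mTORC1 and regulators, and markers of macrophages, neutrophils, B and plasma, T and NK, endothelial, stellate, bile duct and hepatocyte cells) were chosen with earlier results of these data known. Outside the 34, a list's named genes are up to 3 in each direction past the threshold, taken by adjusted p. Promoter sequences are RefSeq's, build GRCm38.p6, and were not used as coordinates of the deposited values.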

Additional observations from a re-analysis of the deposited data

Results flagged for a closer look

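Within the 4 libraries at 3 months, 53 named genes were checked for a library that stood far from the rest, by the gap between an extreme value and its neighbour divided by the whole range; about 5% of genes are picked by chance, and 4 were. Scarb2 was at 107.8 CPM in 3-month replicate 3, against 93.4, 93.5 and 92.8 CPM in replicates 1, 2 and 4 (ratio 0.954). Galns was at 6.75 CPM in 3-month replicate 1, against 5.75, 5.66 and 5.84 CPM in replicates 2, 3 and 4 (ratio 0.836). Laptm4b was at 14.1 CPM in 3-month replicate 4, against 12.8 to 12.96 CPM in replicates 1, 2 and 3 (ratio 0.865). Lyve1, an endothelial marker, was at 9.44 CPM in 3-month replicate 2, against 3.47, 3.84 and 3.90 CPM in replicates 1, 3 and 4 (ratio 0.928), and its call ended on leaving out that library or 21-month replicate 1 or 3 (edgeR adjusted p = 0.106, 0.0982 and 0.142).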

How the results depend on the processing

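Of 611 recomputed fold changes of the 34 genes, 553 stayed on their side of the threshold and 58 crossed the threshold, 49 losing a call and 9 gaining one; 0 called values changed sign, and 27 values without a call did. In the fragment-length fit, all genes called numbered 332, members higher 2, members lower 0, hydrolases and lumen proteins called 2 and membrane proteins 0. With the replicate block, members higher numbered 4 and hydrolases and lumen proteins called 4; among named genes the block ended the calls of Ctsb, Hexa, Psap, Pla2g15 and Atp6ap1 and changed no other call. With library-size scaling these were 3 and 3. On both TPM scales members lower numbered 0 and membrane proteins called 3, while members higher numbered 10. Leaving out 1 library gave 580 to 1642 genes called in all, 2 to 8 members higher, 0 to 2 lower, 2 to 8 hydrolases and lumen proteins, 0 to 1 membrane proteins and 0 to 1 autophagy genes. The count over all genes was 773, 834 and 745 without 3-month replicates 2, 3 and 4 and 580 without 21-month replicate 3. The cause of these changes was not tested. The labels give no batch, and 3 against 4 libraries leave small shifts undecided.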
